A study of Mus musculus with 27 samples.

Results

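The transcriptional response to 8 h of TGF-β was examined in control NMuMG cells, the cells that carry an irrelevant shRNA, and it was set against the response of parental NMuMG cells. NMuMG cells are an epithelial line from the normal mammary gland of the mouse. The control cells were infected with the irrelevant shRNA and selected with puromycin, and they serve in the study as the reference for lamin B1 knockdown (KD) cells. Of the 27 samples of the series, 4 RNA-seq libraries make up this comparison, 2 of untreated control cells and 2 of control cells kept in TGF-β for 8 h, at a concentration that the labels give as 1 to 5 ng/ml. The parental cells, without an shRNA, were treated for 8 h under the same label of 1 to 5 ng/ml and also have 2 libraries per group. Whether the doses were equal is not given. The libraries of a group are biological replicates of 1 cell line, so a p-value measures the spread between cultures of that line. For control cells this spread was pooled over all 12 libraries of the shRNA table, with KD cells and 24 h of TGF-β among them. An SE can thus be wide where the 4 control libraries lie close together. Values are FPKM, fragments scaled to transcript length and to the mapped fragments of the library, and they were compared as log2 after adding 1. A gene was tested when at least 2 of the 12 libraries of the shRNA table reached 1 FPKM, which left 11450 genes. A gene was called when limma, fitted over all genes of the table, gave a Benjamini-Hochberg adjusted p under 0.05. The number after ± is the standard error (SE) of a log2 change, unless it is given as an SD.

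TGF-β is a secreted ligand that binds a pair of kinase receptors, which phosphorylate SMAD2 and SMAD3. These join SMAD4, enter the nucleus and bind DNA with other factors, and they switch on genes of matrix, migration and their own feedback inhibition. In mammary epithelial cells the same signal slows division, lowers the ID proteins and starts the epithelial to mesenchymal transition (EMT), in which cell junctions are lost and actin fibers and matrix proteins are gained. The comparison asks which genes of this early program move in cells that carry an shRNA, and which of them repeat or fail to repeat what parental cells do.

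The 4 control libraries had between 10647 and 10858 genes at 1 FPKM or more, and log2 values of replicates correlated at 0.981 untreated and 0.977 at 8 h, over all tested genes. The depth is unknown, because FPKM were given without the counts behind them. The steps between low FPKM values put the other 3 libraries at 103 to 112% of the depth of the first untreated library. Genes of small RNA families, such as snoRNAs and miRNAs, took 12.03 and 15.1% of the summed FPKM in untreated control cells and 32.3 and 35.6% at 8 h, against 21.6 to 25.2% in the 4 parental libraries. Counts after rescaling to the sum without these genes are given with the other scalings, and small RNA genes were left out of the named genes.

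The labelled cell type was checked against marker lists. The keratins of simple epithelia were abundant. Krt8 had 2487 and 2637 FPKM in the untreated libraries and 3789 and 3938 FPKM at 8 h, and Krt18 had 2307 and 2606 FPKM in the untreated libraries and 2408 and 2534 FPKM at 8 h. The junction protein gene Cdh1, which encodes E-cadherin, was expressed as well. Markers of a differentiated mammary gland were nearly missing: Csn2, Wap and Pgr were listed at 0 in all 4 libraries, and Epcam, a surface protein of most epithelia, did not exceed 1.73 FPKM. Summed over the list, the 7 blood markers stayed between 1.18 and 1.82 FPKM. The 6 endothelial markers reached at most 0.291 FPKM and the 5 adipocyte markers at most 0.345 FPKM. The 7 fibroblast markers summed to 0.266 and 0.403 FPKM untreated and 3.47 and 4.07 FPKM at 8 h, the 8 h sums mostly from the collagen gene Col1a1, and Thy1 and Lum were listed at 0. The mammary luminal list summed to 5971 to 6701 FPKM, mostly from Krt8, Krt18 and Krt19. Of its 5 tested members, 2 were higher and 2 lower at 8 h. The basal list summed to 17.2 and 17.9 FPKM untreated and 53.6 and 54.4 FPKM at 8 h. In bulk RNA, fewer cells of a kind and less RNA per cell cannot be told apart.

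After 8 h of TGF-β, 2223 genes were higher in control cells (19.4% of those tested) and 5137 were lower (44.9%). Most of these changes were small, with a median size of 0.44 on the log2 scale. A change of at least 2-fold was called upward for 438 genes (3.83%) and downward for 544 genes (4.75%). The median change of all tested genes was -0.14, so that a gene with no change relative to the other genes lies slightly below 0. Scaling moved the balance of directions. With quantile normalization 3082 genes were higher and 3624 lower, with upper quartile scaling 2945 and 3782, with median centring 3118 and 3571, and with rescaling to the sum without small RNA genes 2625 and 4135. In parental cells 2535 genes were higher (22.4%) and 3626 lower (32.1%) at 8 h, with a median change of -0.046.

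Some target genes of TGF-β changed strongly. Il11, a secreted cytokine of the IL-6 family, had 0.705 and 0.852 FPKM in the untreated libraries and 32.2 and 31.96 FPKM at 8 h, a log2 change of 4.22 ± 0.093, adjusted p = 8e-09 (limma). Bhlhe40, a transcriptional repressor that responds to TGF-β, had 11.8 and 11.4 FPKM in the untreated libraries and 106 and 100.5 FPKM at 8 h (3.05 ± 0.10, adjusted p = 6e-08, limma). In both genes the treated libraries lay far above the untreated ones. The opposite movement was seen in Id2, which encodes an inhibitor of basic helix-loop-helix factors. It had 389 and 379 FPKM in the untreated libraries and 17.2 and 18.04 FPKM at 8 h, and fell by 4.37 ± 0.086, adjusted p = 4.7e-09 (limma), or 21.8-fold in mean FPKM.

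The 200 bases upstream of the annotated start of these genes are printed below, because these genes changed strongly in control cells and in the same direction in parental cells, and because accessibility was measured at the same places. They were read from mm9 with GENCODE M1 starts, and capitals mark CAGAC or its reverse complement GTCTG, the short box that SMAD3 and SMAD4 can bind.
Bhlhe40, chr6:108610423-108610622, plus strand: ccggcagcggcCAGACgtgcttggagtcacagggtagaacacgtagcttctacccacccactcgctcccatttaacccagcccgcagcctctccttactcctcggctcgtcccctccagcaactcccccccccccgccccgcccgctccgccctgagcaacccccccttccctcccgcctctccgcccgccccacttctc
Il11, chr7:4734461-4734660, minus strand: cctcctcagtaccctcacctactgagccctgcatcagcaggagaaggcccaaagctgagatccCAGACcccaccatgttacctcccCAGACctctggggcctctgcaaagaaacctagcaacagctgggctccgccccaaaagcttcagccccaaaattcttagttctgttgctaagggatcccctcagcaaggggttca
Id2, chr12:25780958-25781157, minus strand: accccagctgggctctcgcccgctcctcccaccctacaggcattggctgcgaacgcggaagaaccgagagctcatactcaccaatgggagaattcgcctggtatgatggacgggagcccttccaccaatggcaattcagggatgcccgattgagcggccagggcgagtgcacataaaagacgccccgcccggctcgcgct

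The box was present once upstream of Bhlhe40, 2 times upstream of Il11 and not upstream of Id2. This is a description of these windows, since 32.9% of the 10185 windows of all genes placed hold at least 1 match, as do 37.5% of the 376 windows of genes that rose in both kinds of cells and at least 2-fold in control cells and 35.2% of the 474 windows of genes that fell in the same way. In parental cells the ATAC-seq list, which has 1 library per time point, placed an accessible region over the start of Bhlhe40 both untreated and at 8 h. At Id2 such a region was listed at 8 h and not in untreated cells, and at Il11 at neither time.

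Upstream of the nucleus, the genes for ligands, latency proteins and receptors moved in both directions. Of 13 tested, 6 were higher and 4 lower, with a median of 0.39. The counts of this and the following lists stand beside 19.4% higher and 44.9% lower among all tested genes. Inhba, which encodes the activin A subunit, had 14.8 and 16.96 FPKM in the untreated libraries and 141 and 136 FPKM at 8 h (3.05 ± 0.29, adjusted p = 2.4e-05, limma). Acvr1, a type I receptor gene, had 20.8 and 20.98 FPKM in the untreated libraries and 66.4 and 65.5 FPKM at 8 h (1.61 ± 0.044, adjusted p = 2.3e-08). Ltbp2, a latent TGF-β binding protein gene of the matrix, was close to silent before treatment and had 0.0559 and 0.0586 FPKM in the untreated libraries and 1.88 and 1.88 FPKM at 8 h (1.44 ± 0.083, adjusted p = 1.2e-06, limma). The type II receptor gene Tgfbr2 fell slightly, by 0.42 ± 0.045, adjusted p = 5.2e-05 (limma), and Bmp4, a ligand of the BMP branch, fell by 1.65 ± 0.11, adjusted p = 2.4e-06. The type I receptor gene Tgfbr1, called higher in parental cells at 0.79, had 24.8 and 21.2 FPKM in the untreated libraries and 29.1 and 31.6 FPKM at 8 h and missed the call in control cells with an adjusted p of 0.0501 in limma.

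Several feedback inhibitors rose. Of 16 SMADs and feedback regulators tested, 9 were higher and 3 lower. Smad7, which blocks the receptors, had 5.88 and 5.88 FPKM in the untreated libraries and 19.3 and 19.8 FPKM at 8 h (1.58 ± 0.079, adjusted p = 5.5e-07, limma). Ski and its relative Skil, corepressors that hold SMAD complexes inactive, rose by 1.26 and 1.36, and the libraries of Skil read 14.5 and 13.4 FPKM in the untreated libraries and 37.99 and 36.8 FPKM at 8 h. Pmepa1, a membrane protein that sequesters receptor SMADs, had 53.6 and 51.2 FPKM in the untreated libraries and 115 and 117 FPKM at 8 h (1.14 ± 0.038, adjusted p = 5.3e-08, limma). Among the SMADs that transmit the signal, Smad3 had 39.6 and 36.1 FPKM in the untreated libraries and 37.6 and 35.8 FPKM at 8 h and was not called (adjusted p = 0.47, limma), whereas in parental cells it rose by 0.35, and the difference between these responses was called (adjusted p = 0.0017).

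Direct and early targets had the largest median change of the 16 gene lists. Of 23 tested, 15 rose and 4 fell, and their median change was 1.67, beside -0.14 for all genes. Thbs1, which encodes the matrix protein thrombospondin 1, had 11.8 and 12.4 FPKM in the untreated libraries and 153 and 148 FPKM at 8 h (3.53 ± 0.055, adjusted p = 1.4e-09, limma). Itga5, a subunit of the fibronectin receptor, rose from 9.81 ± 0.03801 to 81.7 ± 4.03 FPKM (SD, n = 2), Pdgfa, a growth factor, from 13.9 ± 0.162 to 90.3 ± 0.426 FPKM, and Ctgf, a matricellular protein, from 73.7 ± 2.48 to 306 ± 6.28 FPKM. The AP-1 gene Junb rose by 1.94 and Lmcd1, a LIM domain protein gene, by 2.58. All 4 genes that fell were Id1, Id2, Id3 and the collagenase gene Mmp13, the last falling by 1.70. Id1 had 173 and 169 FPKM in the untreated libraries and 79.3 and 82.7 FPKM at 8 h, a smaller fall than that of Id2, and Id3 fell by 2.29 ± 0.10, adjusted p = 2.5e-07 (limma). Of the 18 targets that rose in parental cells, 3 were not called in control cells, namely Itgb6, Tsc22d1 and Ankrd1. Itgb6, a subunit of an integrin that activates latent TGF-β, had 11.8 and 11.2 FPKM in the untreated libraries and 11.7 and 11.6 FPKM at 8 h, while in parental cells it rose by 0.89 (adjusted p of the difference = 0.00032, limma). Tsc22d1, a leucine zipper protein gene, had 315 and 266 FPKM in the untreated libraries and 310.3 and 299 FPKM at 8 h. Its parental rise was 0.36 (adjusted p of the difference = 0.031, limma). The first untreated control library of Tsc22d1 lay above both treated ones and the second below them. For Ankrd1, an ankyrin repeat protein gene with 147 and 129 FPKM in the untreated libraries and 148 and 148 FPKM at 8 h, the parental rise was 0.21 and the difference was not called (adjusted p = 0.43, limma).

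**Figure D1:**
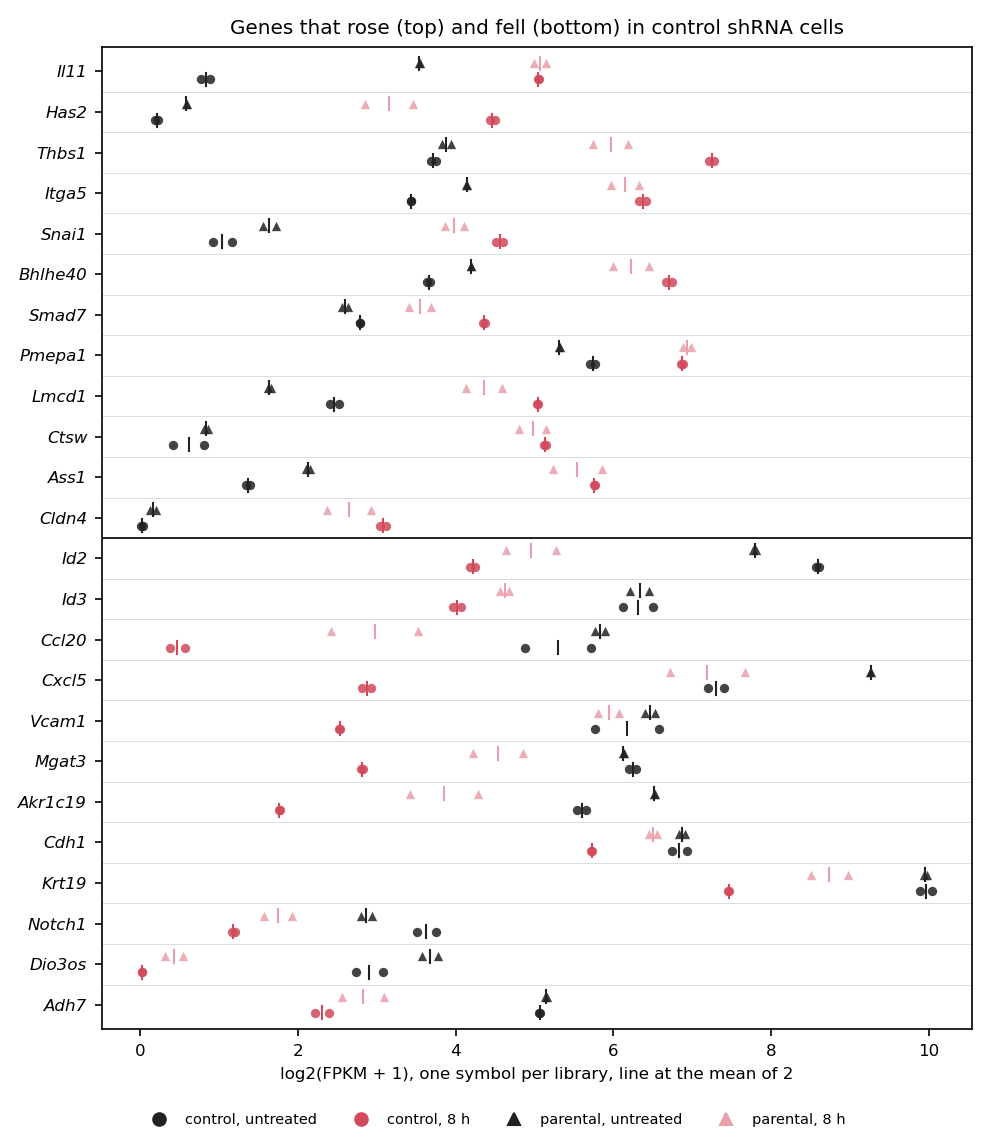
FPKM of 24 genes as log2(FPKM + 1), with 1 symbol per library, circles for control shRNA cells, triangles for parental cells and a line at each mean of 2. The upper 12 genes rose and the lower 12 fell in control cells, and in each of them the treated and untreated control libraries do not overlap, for example Thbs1 at 11.8 and 12.4 FPKM untreated against 153 and 148 FPKM at 8 h. The control and parental tables were normalized separately, so levels across them are not on 1 scale.

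Transcription factors of EMT answered unevenly. Of 15 tested, 7 were higher and 3 lower, beside 19.4% higher and 44.9% lower among all tested genes. Snai1, the repressor of E-cadherin that acts early in this transition, had 0.889 and 1.25 FPKM in the untreated libraries and 23.3 and 21.9 FPKM at 8 h (3.52 ± 0.091, adjusted p = 1.8e-08, limma). Zeb1 had 5.81 and 5.44 FPKM in the untreated libraries and 12.9 and 11.7 FPKM at 8 h and rose by 1.00, Zeb2 rose by 0.58, and the chromatin protein gene Hmga2 had 38.1 and 51.5 FPKM in the untreated libraries and 106 and 107 FPKM at 8 h (1.25 ± 0.11, adjusted p = 2e-05, limma). Runx1 rose by 1.71. Twist2 went down, with 4.06 and 4.202 FPKM in the untreated libraries and 1.497 and 1.51 FPKM at 8 h, and so did Ets2, by 0.84 ± 0.068, adjusted p = 9.1e-06 (limma). Sox9 and Ets1 rose in parental cells by 0.94 and 0.58 and were not called in control cells, where Sox9 had 9.85 and 6.91 FPKM in the untreated libraries and 10.4 and 9.47 FPKM at 8 h and Ets1 had 31.9 and 31.97 FPKM in the untreated libraries and 33.7 and 33.6 FPKM at 8 h. The difference between the responses was called for both (adjusted p = 0.038 and 0.006, limma). For Sox9 the first untreated control library lay between the treated ones and the second below them.

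More epithelial genes fell than rose, as was also the case among all tested genes, whose median change was -0.14. Of 24 tested, 14 were lower and 6 higher, beside 44.9% lower and 19.4% higher among all tested genes, with a median of -0.45. With quantile normalization 12 were lower and 5 higher. Cdh1 had 121 and 106 FPKM in the untreated libraries and 51.6 and 52.1 FPKM at 8 h and fell by 1.11 ± 0.10, adjusted p = 2.3e-05 (limma), which is 2.19-fold in mean FPKM. Krt19, a keratin of simple epithelia, had 1056 and 944.5 FPKM in the untreated libraries and 174 and 176 FPKM at 8 h (-2.50 ± 0.31, adjusted p = 0.00012, limma). Ocln, a tight junction protein gene, fell by 0.83, the polarity gene Crb3 by 2.06 and Mal2, a protein of apical transport, by 1.90. A few junction and keratin genes went the other way. Cldn4, a claudin of tight junctions, had 0.0204 and 0.00982 FPKM untreated and 7.71 and 7.26 FPKM at 8 h. Krt7 had 6.96 and 7.03 FPKM in the untreated libraries and 51.1 and 52.8 FPKM at 8 h, and Krt14, a keratin of basal cells, had 4.65 and 4.14 FPKM in the untreated libraries and 27.3 and 27.3 FPKM at 8 h. Jup, which encodes the desmosome protein plakoglobin, rose by 0.86 ± 0.086, adjusted p = 3.3e-05 (limma).

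Matrix and mesenchymal genes mostly rose. Of 25 tested, 19 were higher and 3 lower, with a median of 0.74, or 1.31 with a constant of 0.1 in place of 1. Fn1, the gene of fibronectin, had 34.8 and 30.6 FPKM in the untreated libraries and 83.6 and 78.8 FPKM at 8 h (1.29 ± 0.30, adjusted p = 0.0046, limma), and the intermediate filament gene Vim rose by only 0.44 from a high level, with 1222 and 1405 FPKM in the untreated libraries and 1795 and 1768 FPKM at 8 h. Tnc, which encodes tenascin C, had 5.83 and 6.38 FPKM in the untreated libraries and 41.4 and 41.1 FPKM at 8 h, and the collagen gene Col5a1 had 0.935 and 1.02 FPKM in the untreated libraries and 8.94 and 8.25 FPKM at 8 h. In both genes the treated libraries lay close together and far above the untreated ones. The inhibitors of matrix proteases Timp1 and Timp3 rose by 2.10 and 2.68. Sparc, a matrix protein gene, fell by 0.54 ± 0.075, adjusted p = 0.00026 (limma), and Mmp14, a membrane protease, rose by only 0.16 (adjusted p = 0.035), less than in parental cells, where it rose by 0.78.

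The actin list moved almost as a whole, with 20 of 23 tested genes higher, 1 lower and a median of 0.53. Zyx, which encodes the focal adhesion protein zyxin, had 35.7 and 29.2 FPKM in the untreated libraries and 95.5 and 93.5 FPKM at 8 h (1.52 ± 0.092, adjusted p = 1.6e-06, limma). Pdlim7, a scaffold of actin bundles, rose by 1.39, and Actn1, the actin crosslinker α-actinin 1, by 0.85. The smooth muscle genes Acta2 and Tagln, late markers of this transition, stayed low in all 4 libraries, at most 0.667 FPKM for Tagln, and were not called.

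Genes of cell division fell. None of the 20 proliferation genes tested was higher, 17 were lower, and the median was -0.55. Mcm3, a subunit of the replicative helicase, had 70.3 and 88.04 FPKM in the untreated libraries and 41.5 and 39.4 FPKM at 8 h (-0.94 ± 0.10, adjusted p = 6e-05, limma). Mki67, the Ki-67 gene, had 41.6 and 52.7 FPKM in the untreated libraries and 40.2 and 38.4 FPKM at 8 h and was not called. In the cytostatic list 11 of 18 genes were lower and 5 higher, beside 44.9% lower and 19.4% higher among all tested genes. The inhibitor gene Cdkn2b, the p15 gene that TGF-β induces in many epithelia, had 24.5 and 24.3 FPKM in the untreated libraries and 47.7 and 50.03 FPKM at 8 h (0.97 ± 0.065, adjusted p = 3.1e-06, limma). Gadd45a, a stress and DNA damage gene, had 11.6 and 9.71 FPKM in the untreated libraries and 59.3 and 63.3 FPKM at 8 h. Ccnd2, the cyclin D2 gene, had 29.6 and 27.2 FPKM in the untreated libraries and 6.45 and 6.81 FPKM at 8 h and fell by 1.94 ± 0.053, adjusted p = 2.2e-08 (limma), and E2f1, a factor of S phase entry, fell by 0.81. Cdkn1a, the p21 gene, had 126 and 121 FPKM in the untreated libraries and 111 and 107 FPKM at 8 h and was not called.

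Of 23 growth factor and receptor genes tested, 8 were higher and 11 lower, beside 19.4% higher and 44.9% lower among all tested genes. Vegfa, the angiogenic growth factor gene, had 16.4 and 15.6 FPKM in the untreated libraries and 96.4 and 90.6 FPKM at 8 h (2.48 ± 0.043, adjusted p = 2.6e-09, limma), and the Notch ligand gene Jag1 had 23.9 and 21.7 FPKM in the untreated libraries and 138 and 133 FPKM at 8 h (2.52 ± 0.067, adjusted p = 2e-08). The receptor that Jag1 engages fell at the same time. Notch1 had 12.4 and 10.4 FPKM in the untreated libraries and 1.29 and 1.23 FPKM at 8 h (-2.45 ± 0.11, adjusted p = 2.8e-07, limma), Kitl, the ligand of the KIT receptor, had 54.1 and 40.2 FPKM in the untreated libraries and 6.14 and 6.47 FPKM at 8 h, and the FGF receptor gene Fgfr2 fell by 2.04. Genes of cholesterol synthesis were higher in 11 of 15 cases and lower in 1, with a median of 0.58. Insig1, a sterol sensor, rose by 1.46 and the demethylase gene Cyp51 by 1.25. The single lower gene was Dhcr7, at -0.55. In the same list 9 of 15 genes had a response called higher in control than in parental cells, beside 5.68% of all genes tested in both tables.

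In the remaining lists, 10 of 15 ATF4 stress genes, 9 of 15 apoptosis regulators and 4 of 9 interferon genes were lower, and 2, 3 and 1 were higher, beside 44.9% lower and 19.4% higher among all tested genes. Mx1, an antiviral gene of the interferon response, had 1.69 and 1.58 FPKM in the untreated libraries and 0.153 and 0.147 FPKM at 8 h (-1.20 ± 0.058, adjusted p = 4.7e-07, limma). Of 18 AP-1 and immediate early genes, 8 were higher and 4 lower. Of the lamina genes, 3 of 10 were higher and 4 lower. Lmna, which encodes lamins A and C, rose by 0.44, Lbr, the lamin B receptor gene, fell by 0.90, and Lmnb2 fell by 0.21. Lmnb1, the gene targeted in the KD cells, had 29.2 and 36.5 FPKM in the untreated libraries and 32.8 and 32.1 FPKM at 8 h. It was not called (adjusted p = 0.97, limma).

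**Figure D2:**
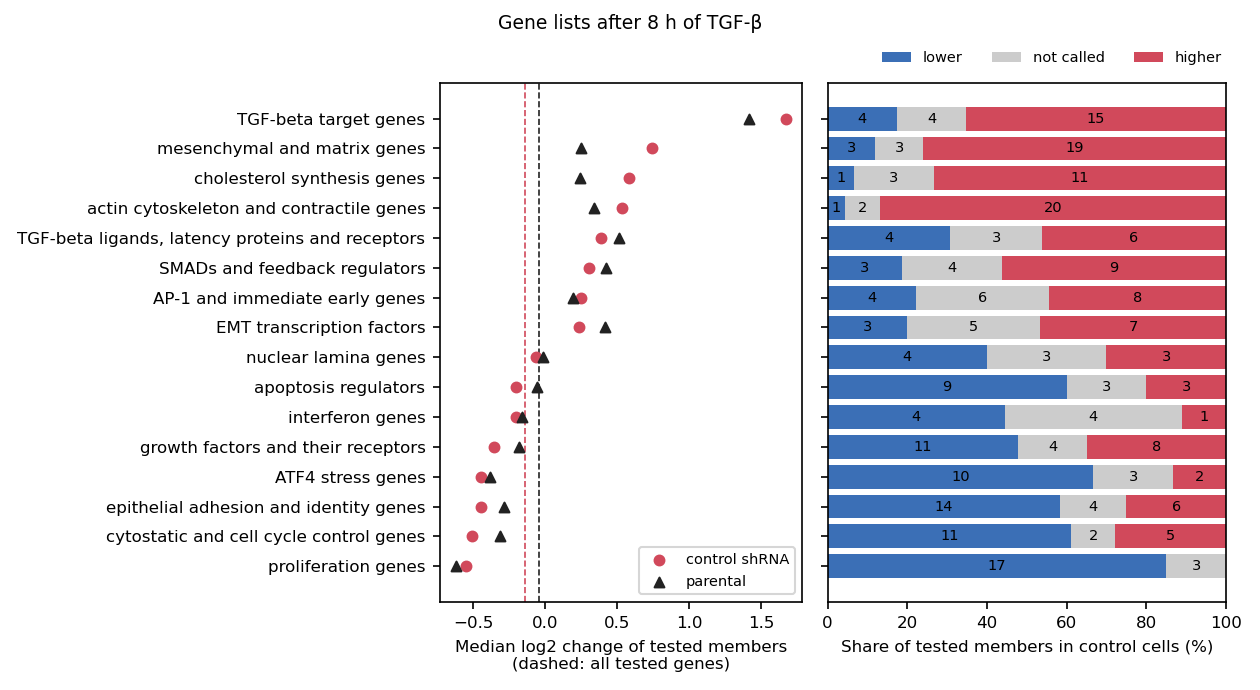
The left panel gives the median log2 change of the tested members of 16 gene lists at 8 h, circles for control and triangles for parental cells, with dashed lines at the median of all tested genes, −0.14 in control and −0.046 in parental cells. The right panel gives the share of tested members called lower, not called and higher in control cells, with the number of genes in each bar, from 17 of 20 proliferation genes lower to 15 of 23 TGF-β target genes higher.

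Outside the lists, the 12 leading risers and 12 leading fallers with separated replicates held genes of varied kinds. Beside Il11, the risers included Has2, the hyaluronan synthase gene, with 0.141 and 0.171 FPKM in the untreated libraries and 21.6 and 20.6 FPKM at 8 h, Ctsw, a cathepsin gene, with 0.336 and 0.759 FPKM in the untreated libraries and 33.9 and 34.4 FPKM at 8 h, and Ass1, the urea cycle enzyme argininosuccinate synthase, with 1.53 and 1.62 FPKM in the untreated libraries and 52.8 and 53.4 FPKM at 8 h. Col7a1, the collagen of anchoring fibrils, had 0.395 and 0.491 FPKM in the untreated libraries and 24.00 and 21.02 FPKM at 8 h. All of them were low before treatment and clearly expressed after it. Gm1045, Lce1f, a cornified envelope gene, 2310007B03Rik, Prg4, which encodes lubricin, Adgra1 and BC002163 were also among them, with log2 changes from 3.67 to 4.98. The 2 untreated libraries of BC002163 were far apart, at 1.71 and 0.0119 FPKM, and its SE was 0.70.

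The leading fallers included genes of inflammation and of metabolism. Ccl20, a chemokine, had 51.4 and 28.6 FPKM in the untreated libraries and 0.294 and 0.479 FPKM at 8 h (-4.83 ± 0.24, adjusted p = 5.1e-07, limma), and Cxcl5, another chemokine, had 168 and 147 FPKM in the untreated libraries and 6.05 and 6.59 FPKM at 8 h. Alb, the albumin gene, had 35.96 and 20.9 FPKM in the untreated libraries and 0.277 and 0.363 FPKM at 8 h. Vcam1, an adhesion molecule for leukocytes, had 94.7 and 53.4 FPKM in the untreated libraries and 4.81 and 4.74 FPKM at 8 h (-3.64 ± 0.26, adjusted p = 4e-06, limma). In Ccl20, Alb and Vcam1 the first untreated library was well above the second, yet both stood far above the treated ones. The selenium transport gene Sepp1 and Gc, the vitamin D binding protein gene, had the same gap, with 539 and 314 FPKM untreated for Sepp1. The other fallers were Akr1c19, Sult1c2, Cyp2s1 and Ugt2b34, which encode enzymes that convert steroids and foreign compounds, and Mgat3, an enzyme of N-glycan branching, with log2 changes from -3.83 to -3.43.

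The parental response was largely repeated. Both tables tested 10843 genes by symbol. Of 2466 genes that rose in parental cells, 1627 (66.0%) rose in control cells, 763 were not called and 76 fell. Of 3490 genes that fell in parental cells, 3048 (87.3%) fell in control cells, 421 were not called and 21 rose. These shares are read beside the 19.4% and 44.9% of all tested genes that rose and fell in control cells. With quantile normalization the shares were 72.5% of rising and 79.3% of falling genes. As shares of the control calls, the genes in common were 77.9% of the 2089 rising and 61.9% of the 4927 falling genes. Over the 10806 genes outside the small RNA families the log2 changes in the 2 kinds of cells correlated at r = 0.8796, a description across genes, which are not independent replicates.

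**Figure D3:**
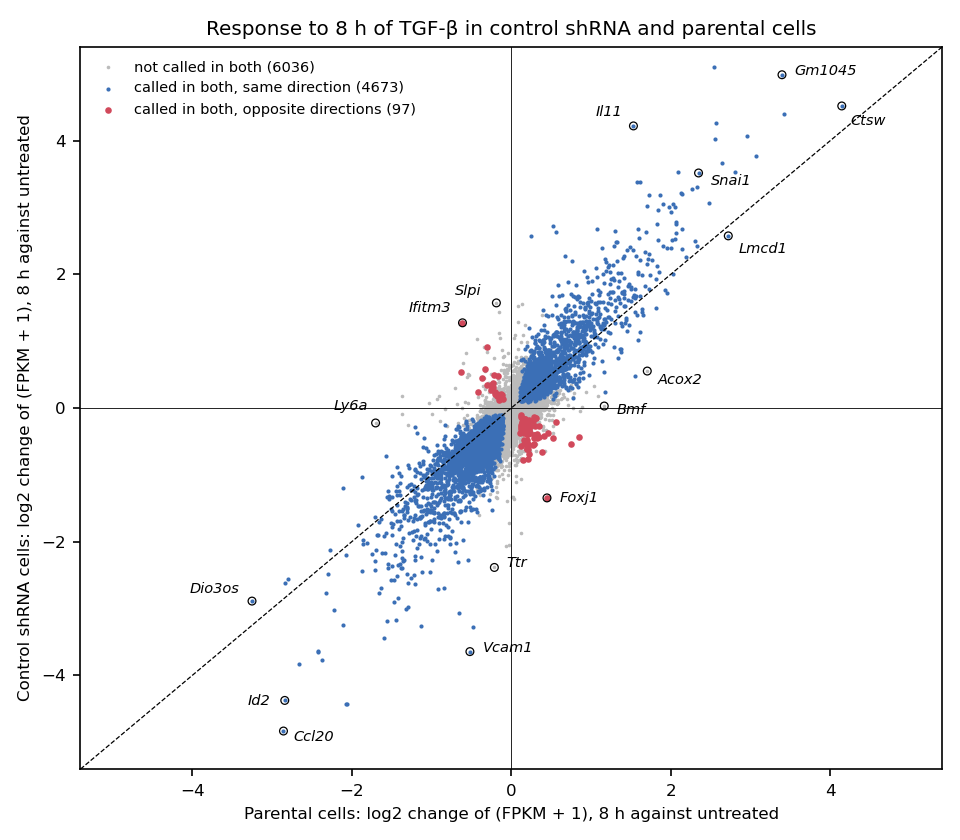
The log2 change at 8 h of 10806 genes tested in both tables, small RNA genes left out, with parental cells on the horizontal and control shRNA cells on the vertical axis, and a dashed line of equal change. Genes called in both in the same direction (4673, blue) lie along and beyond the line, such as Il11 at 1.53 and 4.22, and the 97 genes called in opposite directions (red) lie near the centre, apart from a few such as Ifitm3 at −0.61 and 1.27.

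Repetition was more frequent among larger parental changes. Among genes that rose in parental cells by less than 0.25 on the log2 scale, 38.3% were called higher in control cells, and between 1 and 2 it was 97.9%. For genes that fell, the shares were 76.1% and 97.7%. The gap between rises and falls depended on scaling. Over all sizes the shares were 66.0 and 87.3%, and with quantile normalization 72.5 and 79.3%. Shares by size were not computed under other scalings. Of 224 genes that rose at least 2-fold in parental cells, 217 rose in control cells, and of 244 that fell at least 2-fold, 235 fell. The class of 2 or more repeated at 91.7 and 82.6%, but it was small, with 36 rising and 23 falling genes, and included Snord15b, Snord104 and Snord33, small RNA genes that did not repeat.

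**Figure D4:**
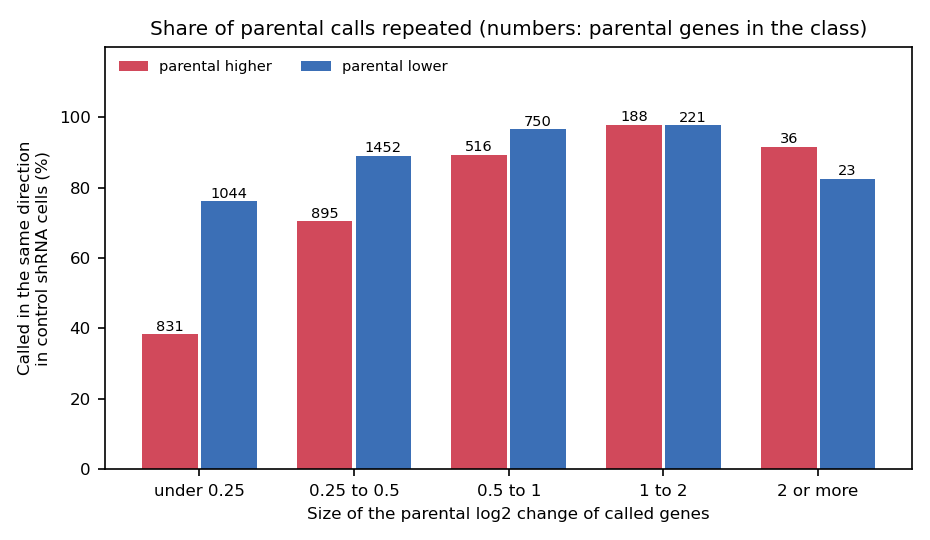
Share of the genes called in parental cells that were called in the same direction in control cells, in percent, by the size of the parental log2 change, red for rising and blue for falling genes. The number above each bar is the count of parental genes in the class, and the share goes from 38.3% of 831 genes to 97.9% of 188 for rises and from 76.1% of 1044 to 97.7% of 221 for falls.

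The genes that repeated most strongly, ranked by the smaller of their 2 log2 changes, were Ctsw among the risers, with 4.52 in control and 4.14 in parental cells, followed by Ass1 (4.39 and 3.42) and Gm1045 (4.98 and 3.39). 2310007B03Rik, Lce1f, Gm5424, Prg4, Lmcd1, Has2 and Col7a1 were the next 7. Gm5424 is annotated as a transcribed pseudogene and may share reads with a near-identical copy, so its value is uncertain. Adgra1 stands in the parental table under its older symbol Gpr123, where it rose by 3.30, so it repeated as well although the match by symbol missed it. Among the fallers the order was Dio3os, with -2.89 and -3.25, then Ccl20 (-4.83 and -2.86) and Id2 (-4.37 and -2.84), followed by Akr1c19, Dio3, Sptssb, Ugt2b34, Cyp2s1, Sult1c2 and Adh7. Dio3, the deiodinase that inactivates thyroid hormone, and Dio3os, transcribed from the opposite strand beside it, were nearly silent in both treated control libraries, with 0.00873 and 0.0478 FPKM for Dio3. Their annotated places do not overlap, with Dio3os at chr12:111513594-111516278 and Dio3 at chr12:111517278-111519307. The paper describes its RNA-seq profiles as specific to the strand. Whether these neighbours move independently was not tested.

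Where parental changes of at least 2-fold repeated, the control response was usually the larger. This did not hold for small parental rises. Of rises under 0.25, repeated or not, 31.3% were larger in control cells, and of falls under 0.25 it was 74.2%. Of 451 genes that changed at least 2-fold in parental cells and in the same direction in control cells, with 1 small RNA gene left out, 352 had the larger log2 change in control cells, and the median ratio of the changes was 1.23. The parental libraries at 8 h bear on this ratio. In 433 of these 451 genes the first parental 8 h library lay further from the untreated mean than the second, with median sizes of 1.45 and 1.18, while the 2 control libraries gave 1.66 and 1.65. Without the second parental library at 8 h the ratio was 1.12, with 308 genes larger in control cells, and without the first it was 1.35.

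The difference between the 2 responses was tested gene by gene over all 18 RNA libraries. It was called for 2440 genes, 616 with a higher (5.68%) and 1824 with a lower (16.8%) response in control cells, and it reached 2-fold for 70 and 87 of them. After quantile normalization 893 differences were higher and 1047 lower. Among the 70 genes, Il11, Tnc, Krt7, Has2, Thbs1, Col7a1 and Vegfa had called rises in both kinds of cells that were larger in control cells. For Il11 the rise was 4.22 against 1.53 (adjusted p of the difference = 6.5e-07, limma), and parental cells started higher, at 10.6 and 10.7 FPKM untreated and 34.5 and 30.8 FPKM at 8 h. Tnc shows the same order, with a rise of 2.57 against 0.25 and parental values of 52.2 and 62.02 FPKM untreated and 66.6 and 69.4 FPKM at 8 h. The larger falls in control cells included Vcam1 (-3.64 against -0.52), Gc (-3.27 against -0.48), Cxcl5 (-4.43 against -2.07), Mgat3, Kitl and Notch1. Infection, selection, a dose within the labelled range and the separate tables cannot be told apart in this design.

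Few sizeable parental responses failed to repeat. Of the genes that rose at least 2-fold in parental cells, 4 were not called in control cells with the difference called, namely Acox2, Bmf, Dbn1 and the small RNA gene Snord15b. Bmf, a pro-apoptotic BH3-only gene, had 28.7 and 15.5 FPKM in the untreated libraries and 22.2 and 20.98 FPKM at 8 h in control cells, and 17.8 and 17.8 FPKM untreated and 45.6 and 37.2 FPKM at 8 h in parental cells. Acox2, a peroxisomal oxidase of bile acid synthesis, had 4.11 and 1.67 FPKM in the untreated libraries and 4.301 and 4.54 FPKM at 8 h, and Dbn1, which encodes the actin binding protein drebrin, had 22.9 and 15.7 FPKM in the untreated libraries and 23.5 and 24.6 FPKM at 8 h. In each of the 3 the first untreated library was near or above the treated level and the second well below it. Without that first library Acox2 rose by 1.02 (adjusted p = 0.0035), Bmf by 0.45 (0.038) and Dbn1 by 0.59 (0.012) in limma, and none of the 4 genes kept its place in this class. With the constant of 0.1 the class held 10 genes, 3 of the 4 among them.

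Parental falls of at least 2-fold that control cells did not share, with the difference called, numbered 7, 2 of them of small RNA families. Ly6a, the Sca-1 surface antigen, had 5.78 and 4.73 FPKM in the untreated libraries and 3.91 and 4.81 FPKM at 8 h in control cells and 14.3 and 12.97 FPKM untreated and 3.27 and 3.76 FPKM at 8 h in parental cells, where it fell by 1.70. Tnfaip2, a gene induced by TNF, had 1.94 and 2.14 FPKM in the untreated libraries and 2.32 and 2.102 FPKM at 8 h against 14.3 and 13.8 FPKM untreated and 5.596 and 7.19 FPKM at 8 h. Gsta1 and Gm3776, glutathione transferases of the α class, fell by 1.29 and 1.37 in parental cells and changed by -0.25 and -0.089 in control cells, and as close relatives they may share reads. Ly6c1, which lies below the level rule and was named after its values were seen, fell by 1.37 in parental cells only, with a control change of 0.17. In untreated control cells Tnfaip2 lay below the treated parental level, Gm3776 and Gsta1 lay near it and Ly6a lay above it. The tables were normalized separately. At 24 h control cells had 0.926 and 0.842 FPKM of Ly6a, 0.198 and 0.318 FPKM of Gm3776 and 0.230 and 0.0810 FPKM of Gsta1. Tnfaip2 had 2.70 and 2.35 FPKM in the same libraries. Without the first untreated control library 6 of the 7 genes remained in the class, and without the second 5 did. With the constant of 0.1 the class held 13 genes, 6 of the 7 among them. Cdh11, a mesenchymal cadherin, also fell in parental cells only, by 0.68. In control cells it had 1.86 and 2.002 FPKM in the untreated libraries and 2.06 and 2.07 FPKM at 8 h.

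Control cells also had responses of their own. Of 414 genes that rose at least 2-fold in control cells and were tested in both tables, 395 rose in parental cells, and 13 did not and had a called difference. Slpi, a secreted protease inhibitor, had 1.78 and 2.25 FPKM in the untreated libraries and 8.28 and 7.61 FPKM at 8 h (1.57 ± 0.11, adjusted p = 4.6e-06, limma), while parental cells had 8.51 and 6.79 FPKM untreated and 7.03 and 6.13 FPKM at 8 h. Bnip3, a mitophagy gene, had 9.02 and 5.46 FPKM in the untreated libraries and 18.9 and 18.3 FPKM at 8 h, and parental cells were already at 18.4 and 18.8 FPKM untreated and 18.5 and 21.2 FPKM at 8 h. 2610528A11Rik rose by 1.24, and Ifitm3 is described with the opposite genes. Malat1, a nuclear long RNA, had 51.4 and 47.8 FPKM in the untreated libraries and 109 and 96.2 FPKM at 8 h, but its SE was 0.32, and without the first untreated library its adjusted p was 0.058 in limma. Gm20594 resembles mitochondrial ribosomal RNA and its count is uncertain. Of the 13 genes, 9 remained without the first untreated library and 9 without the second. With a constant of 0.1 in place of 1 before the log, 51 genes met the rule of this class, 11 of the 13 among them.

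Of 521 genes that fell at least 2-fold in control cells and were tested in both tables, 495 fell in parental cells, and 23 did not and had a called difference. Ttr, the thyroid hormone carrier transthyretin, had 7.296 and 3.07 FPKM in the untreated libraries and 0.0429 and 0.187 FPKM at 8 h, and Lbp, the lipopolysaccharide binding protein, had 26.4 and 16.6 FPKM in the untreated libraries and 5.75 and 5.55 FPKM at 8 h. Slc40a1, the iron exporter ferroportin, had 29.4 and 18.6 FPKM in the untreated libraries and 6.01 and 5.39 FPKM at 8 h, while parental cells had 23.8 and 23.3 FPKM untreated and 23.03 and 28.9 FPKM at 8 h. The matrix protein gene Spon2 had 33.9 and 18.8 FPKM in the untreated libraries and 9.13 and 9.37 FPKM at 8 h, and Tcn2, which carries vitamin B12, had 18.9 and 9.97 FPKM in the untreated libraries and 5.005 and 4.704 FPKM at 8 h. In all of these the first untreated control library was well above the second. This gap ran through the class, with a median ratio of 1.39 on FPKM plus 1. The ratio was 1.02 over all genes and 1.11 over genes that fell in both and at least 2-fold in control cells. Beside 56.3 and 70.5% of these groups, 22 of the 23 genes were higher in the first untreated library. Without that library 9 of the 23 genes remained, among them Ttr at -1.87, Slc40a1 at -1.55 and Lbp at -1.40. With the constant of 0.1 the class held 55 genes, all 23 included.

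The class held 5 histone genes, Hist1h4h, Hist1h4i, Hist1h4k, Hist1h2bl and Hist3h2a, counted after their values were seen, with log2 changes from -2.04 to -1.01. The histone genes tested were not counted, so no share stands beside this number. Without the first untreated library the changes were -1.94 for Hist1h4h, -1.21 for Hist1h4i and -1.07 for Hist1h4k. They were -0.83 for Hist1h2bl and -0.74 for Hist3h2a. Hist1h4i, Hist1h2bl and Hist3h2a then no longer met the rule of the class. Hist1h4h had 5.73 and 4.86 FPKM in the untreated libraries and 0.571 and 0.478 FPKM at 8 h, and 1.005 and 1.11 FPKM untreated and 0.949 and 1.08 FPKM at 8 h in parental cells. Histone genes of a family are nearly identical in sequence and most of their transcripts lack a poly(A) tail. Rn45s, the precursor of ribosomal RNA, had 472 and 393 FPKM in the untreated libraries and 82.96 and 125 FPKM at 8 h. It fell by 2.07. Without the first untreated library its change was -1.94, and its difference from parental cells was no longer called. Bmp2, a ligand of the BMP branch, had a log2 change of -1.11 in control cells and of +0.056 in parental cells, where it was not called. Without the first untreated library its control change was -0.80.

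Genes called in opposite directions were rare and their changes small. There were 97, of which 21 rose in control cells and 76 fell, and no gene reached 2-fold in both. Most of them depended on scaling, since with quantile normalization 8 of the 21 and 32 of the 76 genes kept their class, and with median centring 8 and 29. Ifitm3, an antiviral membrane protein, had the widest contrast, with 5.14 and 4.83 FPKM in the untreated libraries and 13.4 and 13.6 FPKM at 8 h (1.27 ± 0.28, adjusted p = 0.0037, limma) against 53.95 and 51.3 FPKM untreated and 33.1 and 35.2 FPKM at 8 h in parental cells (-0.61, adjusted p = 0.00019). Wfdc2, a secreted protein of epithelia, rose by 0.53 in control and fell by 0.63 in parental cells, Htatip2 rose by 0.45 and fell by 0.36, and H2afj and 1810043H04Rik followed with smaller values. In the other direction stood Calcoco1, a selective autophagy receptor, with 29.4 and 17.7 FPKM in the untreated libraries and 16.3 and 14.6 FPKM at 8 h, Palmd, which encodes palmdelphin, with 10.2 and 6.85 FPKM in the untreated libraries and 5.62 and 6.23 FPKM at 8 h, and Ddr1, a collagen receptor kinase, with 45.1 and 33.6 FPKM in the untreated libraries and 29.7 and 29.9 FPKM at 8 h. Tspan7 and Arl4c fell by 0.44 and 0.38. Without the first untreated control library Calcoco1 and Palmd were no longer called in control cells (adjusted p = 0.18 and 0.16, limma), and 38 of the 76 genes remained. Without the second, 154 genes rose in parental and fell in control cells. Foxj1, a factor of ciliated cells, fell by 1.34 ± 0.27, adjusted p = 0.0021 in control cells (limma), against a rise of 0.45 in parental cells.

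**Figure D5:**
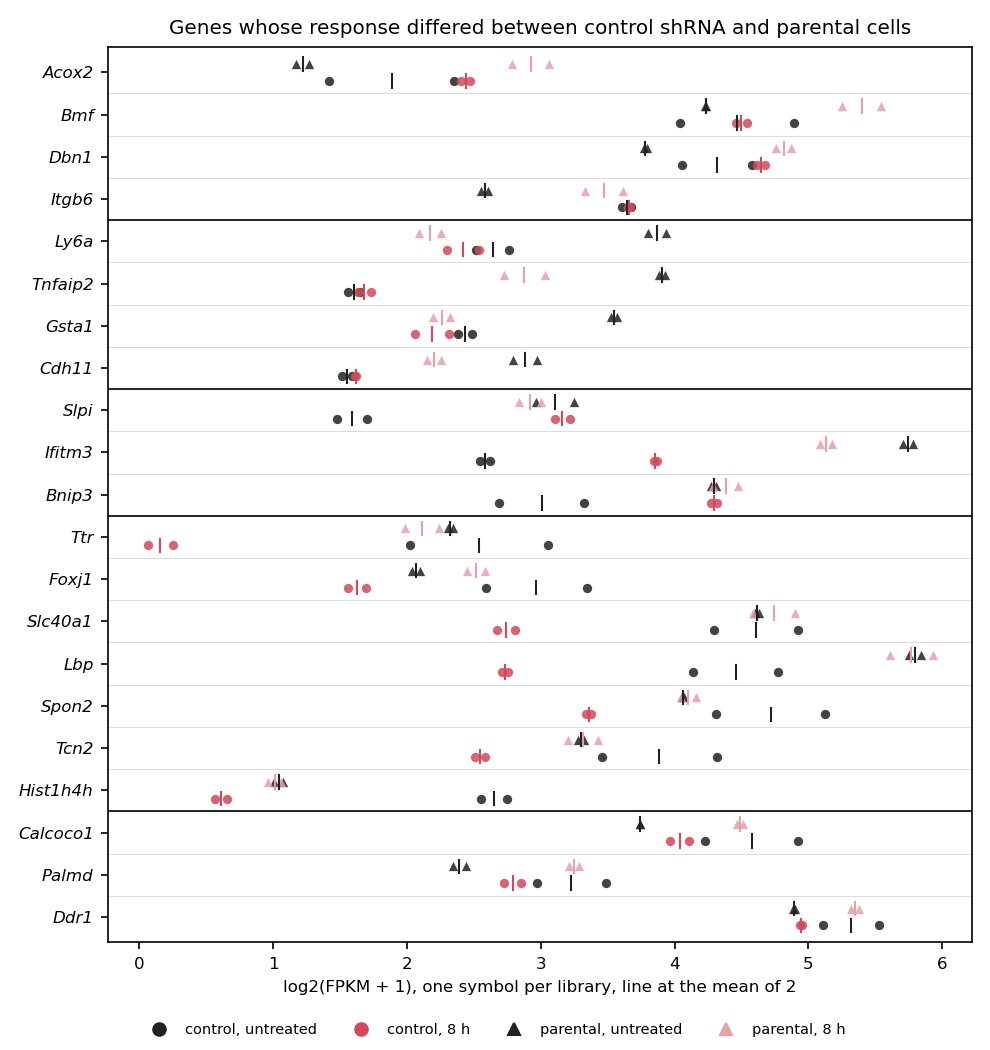
FPKM of 21 genes as log2(FPKM + 1), with 1 symbol per library, circles for control and triangles for parental cells and a line at each mean of 2. From top to bottom, the blocks hold parental rises that control cells did not repeat, parental falls that they did not repeat, rises of control cells only, falls of control cells only, and genes called in opposite directions. The 2 untreated control libraries lie far apart in many of them, as for Bmf at 28.7 and 15.5 FPKM. Ifitm3 and Foxj1, drawn in the blocks of control cells only, were called in the opposite direction in parental cells.

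Repeated and unrepeated genes were last compared for chromatin measured in parental cells, in which each list comes from 1 library and has no replicate. Of 10185 genes placed on mm9, 57.2% had a lamin B1 peak at 8 h between 2500 bp upstream of the start and the end of the gene. The share was 62.7% for genes that rose in both kinds of cells, 54.98% for genes that fell in both, 56.4% for genes called in parental cells only and 56.8% for genes called in control cells only. Accessible promoters, with an ATAC-seq region within 500 bp of the start, made up 46.95% of all genes at 8 h and 26.3% of the genes that rose in both and at least 2-fold in control cells. For genes that fell in both and at least 2-fold in control cells the share was 31.01%. The untreated control level had a median of 5.17 FPKM in the rising group, 12.7 FPKM in the falling group and 13.5 FPKM over all genes, and no test was made of these shares.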

How the data were processed

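RNA-seq was done in untreated and TGF-β-treated NMuMG cells with 2 libraries per group. Per the labels, the authors used Bowtie, TopHat and Cufflinks with mm9, and deposited FPKM values per gene, 1 column per library, in a parental and an shRNA table. The tables lack a header, so each column was matched to its library by the order given in the descriptions. Parental columns carry no replicate number. The authors also deposited lamin B1 and ATAC-seq peaks with a MACS score, used only for their positions. Other files were not used here.

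FPKM were analysed as log2(FPKM + 1) with linear models in limma 3.58.1 (R 4.3.3) and an empirical Bayes step with a trend, with all 12 or 6 libraries of a table in 1 fit and all 18 for the difference between responses. Only genes with the same symbol in both tables were compared. Each response was formed within its own table, since the tables were normalized separately. The script was tested on simulated data. The members and gene lists were chosen with earlier results of these data known. Named genes are list members, the 12 largest rises and falls with separated replicates and a higher mean of at least 5 FPKM, the first 10 repeating each way, the first 5 opposite each way and the first 8 not repeated in either cell, small RNA families excluded. Some genes that this rule names are not reported here. Genes were placed by symbol with GENCODE M1, 10185 of 10843. Alternatives were a constant of 0.1, no filter, quantile and upper quartile scaling, a 2-fold minimum, fewer libraries, a replicate block and each library left out. Median centring, rescaling without small RNA genes and counts of genes that keep their class were added after seeing the data.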

Additional observations from a re-analysis of the deposited data

Results flagged for a closer look

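The response to TGF-β at 8 h differed between control and parental cells for 2440 genes in the fit of 18 libraries (limma, adjusted p under 0.05), and the values given here are the control minus the parental log2 change. The libraries of control and parental cells stand in tables normalized apart, and infection, selection, dose and table cannot be told apart.

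Among named genes that rose in both, the rise was larger in control cells, with Il11 at 2.69, Tnc at 2.32, Krt7 at 2.21, Has2 at 1.69, Gm1045 at 1.59, Col7a1 at 1.48, Thbs1 at 1.44, Snai1 at 1.17, Inhba at 1.15, Vegfa at 1.15 and Lce1f at 1.11. Further genes of this kind were Timp3 at 1.096, Col1a1 at 1.02, Bhlhe40 at 1.02, Ass1 at 0.98, Itga5 at 0.93, Timp1 at 0.89, Col5a1 at 0.86, Insig1 at 0.76, Gm5424 at 0.73, 2310007B03Rik at 0.69, Cyp51 at 0.65 and Smad7 at 0.63. Further genes of this kind were Pdgfa at 0.55, Junb at 0.52, Runx1 at 0.49, Jag1 at 0.46 and Krt8 at 0.24. Among named genes that rose in both, the rise was smaller in control cells, with Mmp14 at -0.62 and Pmepa1 at -0.48. Among named genes that fell in both, the fall was larger in control cells, with Vcam1 at -3.12, Gc at -2.79, Alb at -2.37, Cxcl5 at -2.36, Sepp1 at -2.13, Ccl20 at -1.98, Mgat3 at -1.84, Kitl at -1.79, Id2 at -1.53, Sult1c2 at -1.39, Notch1 at -1.33 and Krt19 at -1.29. Further genes of this kind were Cyp2s1 at -1.23, Ugt2b34 at -1.22, Ccnd2 at -1.18, Akr1c19 at -1.17, Fgfr2 at -1.01, Cdh1 at -0.74, Crb3 at -0.67, Id3 at -0.58 and Ocln at -0.56. Among named genes that fell in both, the fall was smaller in control cells, with Mx1 at 0.92. Rises called in parental cells only had differences, with Acox2 at -1.15, Bmf at -1.14, Itgb6 at -0.88, Sox9 at -0.71, Dbn1 at -0.71, Sun2 at -0.56, Ets1 at -0.51, Smad3 at -0.40 and Tsc22d1 at -0.29. Falls called in parental cells only had differences, with Ly6c1 at 1.54, Ly6a at 1.48, Gm3776 at 1.28, Tnfaip2 at 1.11, Gsta1 at 1.04 and Cdh11 at 0.74. Rises called in control cells only had differences, with Slpi at 1.76, Gm20594 at 1.59, Malat1 at 1.46, Bnip3 at 1.20 and 2610528A11Rik at 1.08. Falls called in control cells only had differences, with Ttr at -2.17, Hist1h4h at -2.01, Rn45s at -2.01, Slc40a1 at -1.99, Lbp at -1.70, Spon2 at -1.40, Tcn2 at -1.35, Hist1h4k at -1.34, Bmp2 at -1.17, Hist3h2a at -1.09, Hist1h2bl at -0.97 and Hist1h4i at -0.90. Further genes of this kind were Ets2 at -0.69 and Sparc at -0.51. Genes that rose in control and fell in parental cells had differences, with Ifitm3 at 1.89, Wfdc2 at 1.16, Htatip2 at 0.82, H2afj at 0.65 and 1810043H04Rik at 0.53. Genes that fell in control and rose in parental cells had differences, with Foxj1 at -1.79, Palmd at -1.29, Calcoco1 at -1.29, Ddr1 at -0.83, Tspan7 at -0.78 and Arl4c at -0.71.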

How the results depend on the processing

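The total counts of calls kept within 1.5 times of their values for the constant of 0.1, no filter, quantile, upper quartile, median centring, rescaling without small RNA genes and fits of 6 or 4 libraries. Their parts moved more. Differences that were lower in control cells fell from 1824 to 1047 with quantile, 1061 with upper quartile and 1082 with median centring, and opposite calls lower in control cells from 76 to 50 with upper quartile scaling. The small classes of responses of at least 2-fold in 1 kind of cells grew with the constant of 0.1, as given with each class. A 2-fold minimum left 982 control calls, 486 parental calls, 411 in both in the same direction, 0 in opposite directions (97 without the minimum) and 157 differences. Leaving out 1 library at a time gave 6138 to 6882 control calls, 4727 to 5880 parental calls, 3758 to 4657 genes in the same direction, 57 to 179 in opposite directions and 1416 to 3005 differences. Opposite calls numbered 58 without untreated control library 1, 179 without library 2, 60 and 57 without 8 h control library 1 and 2, and 60 without either untreated parental library. Differences numbered 1539 and 1417 without 8 h control library 1 and 2, 1493 without the second untreated parental library and 1416 without the second parental 8 h library. The cause of these moves was not tested. In the 76 opposite genes lower in control cells, 70 (92.1%) had the higher value in untreated library 1, beside 56.3% of all genes compared. With the replicate block there were 7306 control calls, 4651 in the same direction, 95 in opposite directions and 2399 differences. The deviations of same-numbered control libraries, untreated and at 8 h, correlated at 0.0122, so no shared deviation was seen. This value cannot show whether the cultures were paired. Among named genes, the difference for Krt8 turned to -0.19 with quantile normalization (adjusted p = 0.488, limma), and no change of a named gene reversed in the alternatives run. Over these settings and genes, 1374 changes kept their side of the threshold, 34 lost and 22 gained a call, and of the differences 1251 kept and 106 lost it. The lamina median moved from -0.063 to 0.04 with quantile normalization, 0.047 with upper quartile scaling, 0.057 with median centring and 0.012 with rescaling without small RNA genes. Of the other list medians, those of EMT factors (0.24), apoptosis (-0.20), growth factor (-0.36) and interferon genes (-0.20) were 0.38, -0.11, -0.23 and -0.068 with quantile normalization. Without untreated library 1 or 2 the EMT median was 0.46 or 0.078, and the growth factor median was -0.17 without library 2. FPKM without counts limit what can be said of low genes.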
